A study of Homo sapiens with 8 samples.

Results

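SIX-family and EYA-family genes encode transcription factors and their coactivators that pattern the pharynx, the cranial sensory placodes, the eye, the kidney and skeletal muscle. The 9 genes described here are SIX2, SIX3, SIX4, SIX5 and SIX6, with EYA1, EYA2, EYA3 and EYA4, chosen by symbol through the GENCODE 29 annotation, 9 of 58780 annotated genes in the tables. Their RNA was read at 4 stages of a differentiation of H1, a widely used line of human embryonic stem cells, towards the inner lining of the embryo's pharynx. The stages, with 2 libraries each and 8 in all, were the undifferentiated line (hESC), the definitive endoderm formed first (hDE), its anterior foregut derivative (hAFE) and the pharyngeal foregut endoderm at the end (hPFE). Every library is labelled H1 with no genetic change or added agent named, and the factors and days of culture are not given in the sources used here. Both the hESC and hDE libraries are labelled as re-analysed and the hAFE and hPFE libraries are not, so library origin and stage cannot be told apart in a comparison of hAFE or hPFE with hDE or hESC. The labels do not tell whether paired libraries were grown apart, and the p-values therefore reflect only how far those libraries differ, possibly for technical reasons.

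SIX-family proteins bind DNA through a homeodomain and bind partner proteins through the adjoining SIX-type domain. EYA proteins do not bind DNA themselves; they join SIX-family proteins on their targets, carry a transactivating region and a phosphatase domain, and work in a network with PAX factors and DACH cofactors. In mouse, Eya1 is needed for the thymus and parathyroid glands, which arise from pharyngeal pouches. Human EYA1 mutations cause branchio-oto-renal syndrome. SIX3 and SIX6 belong mainly to the forebrain, eye and pituitary and can act as repressors with Groucho-type TLE proteins.

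Promoter sequences were at hand for 5 of the 9 genes (SIX2, SIX4, SIX6, EYA3 and EYA4), from RefSeq on GRCh38.p14, each covering 250 bases before and 50 after the gene's start. The promoters of 3 members are shown 5′ to 3′ because these members took different courses in the counts below: SIX4 was lowest in hDE, SIX2 had its highest mean in hPFE, and EYA3 passed no test. Capitals mark GC boxes (GGGCGG or its reverse complement CCGCCC) and CCAAT boxes (CCAAT or ATTGG).
SIX4, chr14:60724302-60724601, minus strand: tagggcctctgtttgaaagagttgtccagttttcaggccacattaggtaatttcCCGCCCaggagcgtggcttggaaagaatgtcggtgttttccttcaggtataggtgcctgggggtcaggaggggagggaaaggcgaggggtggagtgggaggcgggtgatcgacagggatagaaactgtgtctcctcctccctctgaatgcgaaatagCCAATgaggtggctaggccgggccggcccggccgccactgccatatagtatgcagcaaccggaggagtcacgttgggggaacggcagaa
SIX2, chr2:45009403-45009702, minus strand: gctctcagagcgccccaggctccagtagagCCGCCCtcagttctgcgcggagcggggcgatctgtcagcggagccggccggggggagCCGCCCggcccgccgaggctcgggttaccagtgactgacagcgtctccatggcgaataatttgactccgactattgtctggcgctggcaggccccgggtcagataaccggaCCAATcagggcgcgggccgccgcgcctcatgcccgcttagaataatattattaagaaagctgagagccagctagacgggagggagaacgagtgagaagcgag
EYA3, chr1:28088561-28088860, minus strand: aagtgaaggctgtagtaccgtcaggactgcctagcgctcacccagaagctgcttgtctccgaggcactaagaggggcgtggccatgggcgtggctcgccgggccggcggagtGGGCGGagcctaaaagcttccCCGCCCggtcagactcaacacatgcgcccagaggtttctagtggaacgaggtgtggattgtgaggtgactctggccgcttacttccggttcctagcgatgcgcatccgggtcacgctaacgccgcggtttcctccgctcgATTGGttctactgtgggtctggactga
Both box types occurred in all 3 windows, with 1 GC box in SIX4, 2 in SIX2 and 2 in EYA3, and 1 CCAAT box in each. Among 35116 promoter windows of this length, 44.95% held a GC box and 34.61% a CCAAT box. The TATA box TATAAA, the SIX-family core TGATAC and the MEF3 letters TCAGGTT, searched on both strands, were in none of the 5 windows, against 11.53%, 4.4% and 3.37% of all windows. No 2 of the marked motifs overlapped. GC content was 57.7% in SIX4, 64.0% in SIX2 and 61.7% in EYA3, against a median of 58.7% over all windows, and the windows held 14, 29 and 25 CpG dinucleotides, against a median of 14. A match in these letters is a description of the window and says nothing of a factor bound there.

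The libraries held 12687161 to 17802900 estimated counts, of which the 9 genes took 1452 to 3940. All 72 member counts were whole and had a posterior SD of 0, so none shows reads divided with another gene. The levels below are CPM (counts scaled to the TMM-adjusted library size) unless TPM is named, and a gene is called where the adjusted p of edgeR's quasi-likelihood test over 17446 genes is below 0.05. A total of 0 over both libraries of a stage allows up to 3 counts, which is 0.0874 CPM for hESC, 0.12 for hDE, 0.104 for hAFE and 0.0989 for hPFE, for counting error only. The stage labels were checked against their markers. POU5F1, the pluripotency factor OCT4, was at 858 and 942.2 CPM in the hESC libraries and at 0.439 CPM or lower in every hAFE and hPFE library. SOX17, an endoderm factor, was at 126.5 and 148.5 CPM in hDE. PAX9, a pharyngeal pouch factor, was at 21.8 CPM or more in the hAFE and hPFE libraries and at 5.52 CPM or less in the others. TBX1, another pharyngeal marker, was at 0 in all 4 hESC and hDE libraries, at 0.727 and 5.996 CPM in hAFE and at 1.21 and 1.95 CPM in hPFE, with a lower mean in hPFE than in hAFE and overlapping libraries. The libraries are bulk RNA, in which fewer cells of a type and less RNA per cell cannot be told apart.

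By deposited TPM, EYA3 and SIX4 were the main members of their families before differentiation, and the make-up of the EYA sum differed between stages. In TPM, which allows for length, EYA3 made up 89.2% and 86.5% of the summed EYA level in the hESC libraries. Its share was 56.3% and 49.0% in hDE, 57.6% and 25.1% in the first and second hAFE libraries, and 45.1% and 49.3% in hPFE. EYA2 held 2.92% and 3.20% of the EYA sum in hESC and 29.9% and 37.8% in hDE. EYA1 held 7.56% and 8.93% in hESC, and 29.8% and 51.6% in the first and second hAFE libraries, where it outweighed EYA3 in the second only. The summed EYA level was 5.82 and 7.50 TPM in hESC, 7.35 and 8.91 in hDE, 20.5 and 32.4 in hAFE, and 17.8 and 26.7 in hPFE. Among the 5 SIX-family genes, SIX4 and SIX5 held nearly all of the hESC sum of 7.43 and 7.07 TPM. In hDE, SIX5 held the larger share (53.1% and 45.3%, beside 31.2% and 42.7% for SIX4). The SIX-family sum was lowest in hDE at 3.75 and 3.49 TPM, then 13.2 and 14.7 TPM in hAFE and 8.97 and 20.1 TPM in hPFE. The EYA shares are approximate, because deposited TPM lay below its own interval for EYA1 in 7 libraries, EYA4 in 8 and EYA2 in both hESC libraries. In hESC the EYA2 intervals reached 8.61 and 10.4 TPM, against an EYA3 TPM of 5.19 and 6.49. In counts, EYA3 had 852 and 1172 in hESC and EYA2 had 12 and 19. TPM was used as deposited, and its whole-table scale shifted between stages, so changes over stages are tested on counts.

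**Figure D1:**
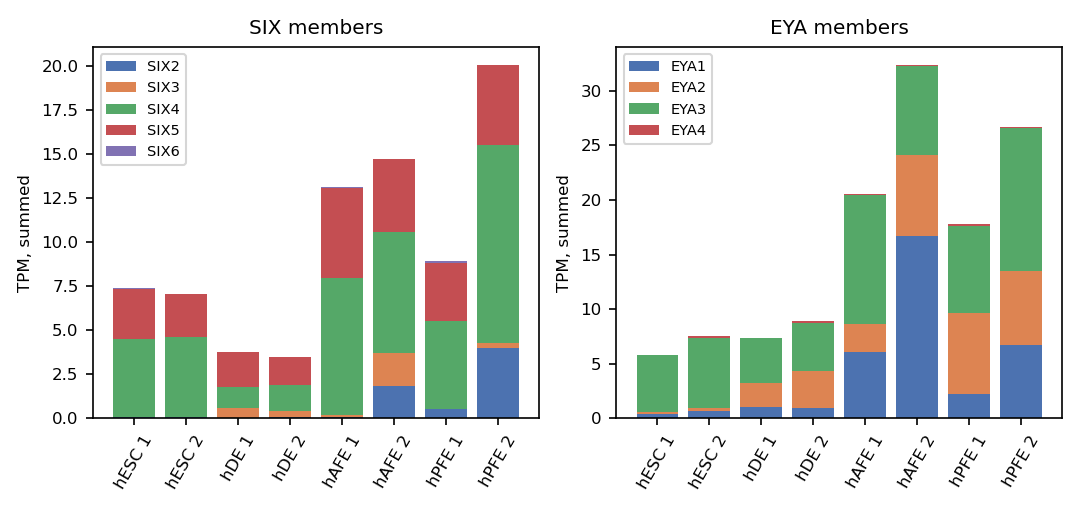
Summed TPM (vertical axis) of the 5 SIX-family genes (left) and the 4 EYA genes (right) in each of the 8 libraries, each bar stacked by gene. EYA3 fills most of the hESC bars, EYA2 enters in hDE, EYA1 reaches 16.7 TPM in the second hAFE library, and the SIX-family sum is lowest in the 2 hDE libraries.

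Across the stages, EYA2 and EYA1 rose, SIX4 fell in hDE and rose again in hAFE, SIX3 rose in hDE, and SIX5 and EYA3 passed the test in no comparison. Of the 9 members, 7 passed the count filter; SIX6 and EYA4 had too few counts for a test. In hDE against hESC, 4 of the 7 were called, with SIX3, EYA1 and EYA2 higher and SIX4 lower, beside 41.9% of all genes tested (20.3% higher, 21.6% lower). In hAFE against hDE, 2 were called, SIX4 and EYA1, both higher, beside 30.2% of all genes (15.0% higher, 15.2% lower). In hPFE against hAFE none was called by edgeR, beside 7.49% of all genes (4.77% higher, 2.71% lower). At an unadjusted p below 0.05 there were 3, all lower in hPFE (SIX3, SIX5 and EYA1), and DESeq2 called 1, EYA1. In hPFE against hESC, 3 were called, all higher (SIX2, EYA1 and EYA2), beside 45.0% of all genes (21.6% higher, 23.3% lower). In hAFE against hESC, 4 were called, all higher (SIX3, SIX4, EYA1 and EYA2), beside 39.8% (19.2% higher, 20.6% lower). In hPFE against hDE, 1 was called, SIX4, beside 33.6% (16.6% higher, 17.0% lower). In 7 members a single gene moves the share widely, so nothing particular to the SIX-family and EYA genes is read from these counts. The 6 comparisons share libraries and are not independent. The median log2 fold change of the 7 members was 0.19 in hDE against hESC and 2.81 in hPFE against hESC, where the medians over all genes tested were -0.0071 and 0.0155. SIX2, with 11 counts in hESC and 7 in hDE, and SIX3, with 1 in hESC, passed the count filter only through later stages. Their calls and these medians are thus partly set by the filter. Of the rest in hPFE against hESC, SIX4 was at 0.26, SIX5 at -0.14, EYA3 at 0.19, EYA1 at 2.81 and EYA2 at 4.61.

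**Figure D2:**
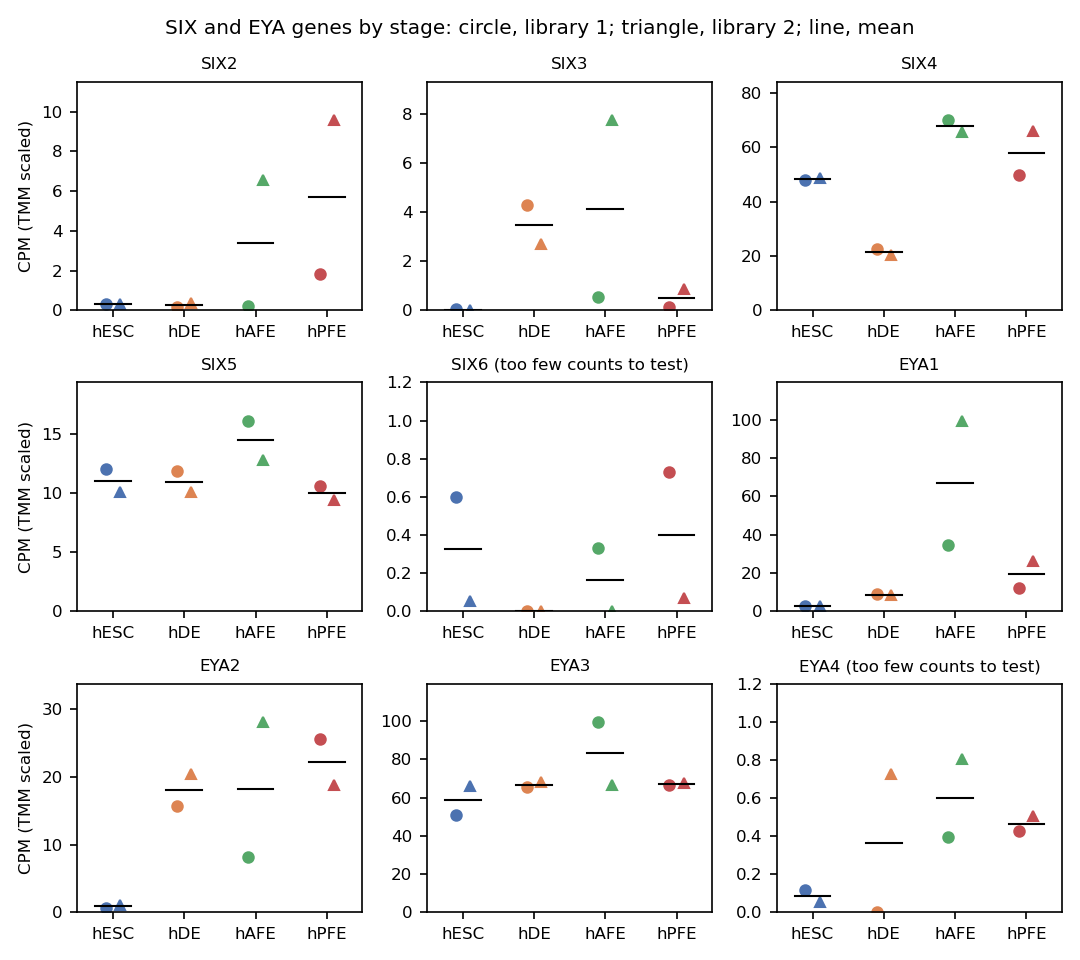
CPM after TMM scaling (vertical axis, linear, own scale in each panel) of the 9 genes at the 4 stages, with the first library as a circle, the second as a triangle and a line at their mean. SIX4 is lowest in hDE, EYA1 and SIX2 are far apart between the 2 hAFE libraries, and SIX6 and EYA4 stay below 1 CPM throughout.

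SIX4 (ENSG00000100625.8, hg38 chromosome 14, 60709528 to 60724348, minus strand), which acts in muscle and sensory organ development in mouse and held the larger part of the hESC SIX-family sum, was lowest in hDE. It was at 48.0 and 48.7 CPM in hESC, 22.7 and 20.3 in hDE, 70.1 and 65.7 in hAFE, and 49.7 and 65.9 in hPFE. Both hDE libraries lay below every other library. SIX4 fell in hDE against hESC, at 21.5 ± 1.71 against 48.3 ± 0.481 CPM (SD, n = 2 each; log2 fold change -1.17, SE 0.165, adjusted p = 0.00136). It rose in hAFE against hDE, at 67.9 ± 3.14 against 21.5 ± 1.71 CPM (log2 fold change 1.66, SE 0.166, adjusted p = 0.000436). It was also higher in hPFE than in hDE (log2 fold change 1.43, SE 0.166, adjusted p = 0.000729), and these 3 calls held in all 16 alternatives. The hAFE and hPFE libraries overlapped (adjusted p = 0.393). The rise of hAFE over hESC was small (log2 fold change 0.49, adjusted p = 0.0424) and was lost in 11 of the 16 alternatives.

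SIX5 (ENSG00000177045.8, chromosome 19, 45764785 to 45769226, minus strand), a homeodomain factor encoded beside the myotonic dystrophy kinase gene DMPK, passed no test. Its levels were 12.0 and 10.1 CPM in hESC, 11.8 and 10.1 in hDE, 16.1 and 12.8 in hAFE, and 10.6 and 9.38 in hPFE. The hAFE libraries were the highest, and no comparison passed. The largest difference was hPFE against hAFE (10.0 ± 0.88 against 14.5 ± 2.35 CPM, SD, n = 2 each, log2 fold change -0.53, SE 0.221, adjusted p = 0.175).

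SIX2 and SIX3 lie together on chromosome 2, at 45005161 to 45009430 (minus strand, ENSG00000170577.7) and 44941898 to 44946077 (plus strand, ENSG00000138083.4). SIX2, which keeps nephron progenitors undifferentiated in mouse kidney and is also expressed in head mesenchyme, was at 0.300 and 0.339 CPM in hESC and 0.178 and 0.362 in hDE. It was then at 0.198 and 6.58 CPM in hAFE and 1.82 and 9.60 in hPFE, higher in the second library at both stages. The first hAFE library was as low as the earlier stages, and the hPFE and hAFE libraries overlapped (adjusted p = 0.729). SIX2 rose in hPFE against hESC, at 5.71 ± 5.50 against 0.320 ± 0.0275 CPM (SD, n = 2 each; log2 fold change 4.11, SE 1.43, adjusted p = 0.0477). Of 16 alternatives, 7 ended this call, including those without the second hPFE library (log2 fold change 2.48, adjusted p = 0.238, and 4.87 without the first), without either hESC library (adjusted p = 0.186 for each) and without either hDE library (adjusted p = 0.0779 and 0.0773). Against hDE, the hPFE difference did not pass (log2 fold change 4.32, adjusted p = 0.0605), but did in 7 of 16 alternatives.

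SIX3, a regulator of forebrain and eye that is mutated in human holoprosencephaly, was all but absent in stem cells and present at low level in hDE. Its counts were 1 and 0 in hESC, 48 and 37 in hDE, 8 and 106 in hAFE, and 2 and 12 in hPFE. In CPM the hDE libraries were at 4.27 and 2.68, and the first and second hAFE libraries at 0.529 and 7.75, so the second hAFE library was the highest of all 8 and the first was low. SIX3 rose in hDE against hESC, a ratio of 117 between counts scaled to library size (exact 95% binomial interval 20.4 to 4660, for counting error in the pooled libraries only; adjusted p = 0.0198). This call was lost on log2(TPM + 1) (adjusted p = 0.309) and without any 1 of the 4 libraries compared (adjusted p between 0.0528 and 0.119). In hAFE against hESC the ratio was 136 (23.9 to 5410, again for counting error only; adjusted p = 0.0181), and 106 of the 114 hAFE counts came from the second library. The fitted log2 fold change, which rests on 1 hESC count, was 6.78, and 3.84 without the second hAFE library. This call was lost without the second hAFE library (adjusted p = 0.0852), without either hESC library (adjusted p = 0.0822 and 0.115) and on log2(TPM + 1). In hPFE the total was 14 counts, a ratio of 15.8 to hESC (2.41 to 670, likewise; adjusted p = 0.178).

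Neighbouring genes were read next to the members. Within 50 kb of a member's start, or overlapping its body, lay 45 annotated gene entries, of which 9 reached 1 TPM in a library. LINC01833, a long intergenic RNA gene near SIX3 on the opposite strand, was at 0.300 and 0.339 CPM in hESC, 5.61 and 7.24 in hDE, 2.25 and 33.1 in hAFE, and 1.52 and 4.11 in hPFE. Like SIX3, it was highest in the second hAFE library and lowest in hESC. It was called higher in hDE than in hESC (6.43 against 0.320 CPM, log2 fold change 4.29, adjusted p = 0.0288) and in hAFE than in hESC (17.7 against 0.320 CPM, log2 fold change 5.75, adjusted p = 0.011). AC012354.1, another intergenic RNA there, had 76 counts in the second hAFE library and 1 to 8 in each other library. OTX2, a homeobox gene of head ectoderm and also of anterior endoderm, was at 46.4 and 53.3 CPM in hESC, 666.6 and 697.6 in hDE, 17.0 and 332.6 in hAFE, and 6.19 and 30.2 in hPFE. C14orf39, which overlaps SIX6 on the opposite strand, was called in none of the 6 comparisons (lowest adjusted p = 0.254). The libraries are strand-specific, and no source used here tells whether strand was used in counting. Beside SIX5, DMPK was called higher in hDE (15.97 CPM), hAFE (18.07 CPM) and hPFE (14.8 CPM) than in hESC (6.91 CPM; adjusted p = 0.00902, 0.00587 and 0.012), as was DMWD, while FBXO46 was called only as lower in hPFE than in hDE (8.85 against 16.3 CPM, adjusted p = 0.0444). The other neighbours at 1 TPM or more were MNAT1 near SIX4, called in no comparison, AL354766.2 overlapping EYA2 and RN7SL559P overlapping EYA3, with at most 5 counts in a library.

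**Figure D3:**
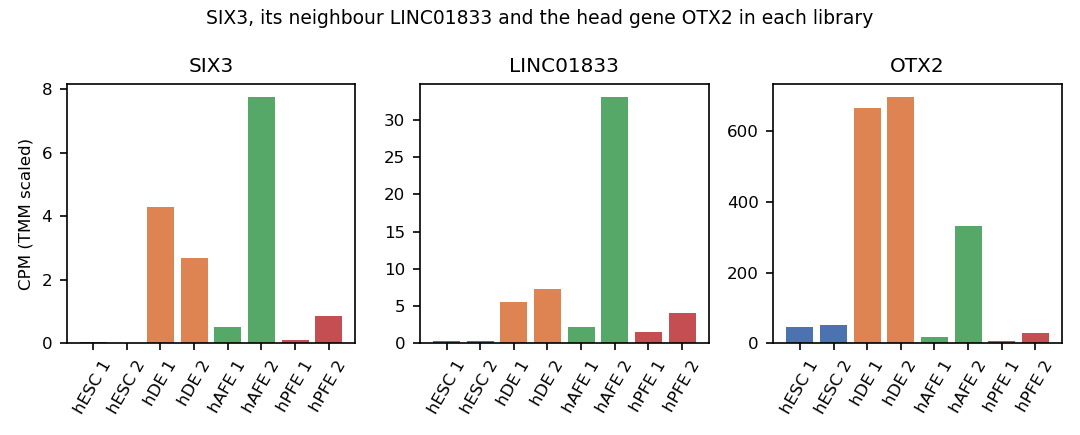
CPM (vertical axis, linear from 0, own scale in each panel) of SIX3, its neighbour LINC01833 and OTX2 in each of the 8 libraries, coloured by stage. All 3 are higher in hDE than in hESC and higher in the second hAFE library than in the first, with SIX3 at 7.75 and 0.529 CPM in the second and the first.

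SIX6 (ENSG00000184302.6, chromosome 14, 60508951 to 60512850, plus strand), a gene of retina, hypothalamus and pituitary, was near the limit of detection. It had 10 and 1 counts in hESC, 0 and 0 in hDE, 5 and 0 in hAFE, and 12 and 1 in hPFE. At each stage with counts, the first library held most of them. No fold is given, since 12 of the 13 hPFE counts came from 1 library.

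EYA1 (ENSG00000104313.18, chromosome 8, 71197433 to 71592025, minus strand), the coactivator of pharyngeal pouch, ear and kidney development, was highest in hAFE. It was at 2.76 and 2.71 CPM in hESC, 9.08 and 8.55 in hDE, 34.6 and 99.5 in hAFE, and 12.2 and 26.5 in hPFE. Both hAFE libraries lay above all others, and the second hAFE library was far above the first. EYA1 rose in hAFE against hDE, at 67.0 ± 45.9 against 8.81 ± 0.377 CPM (SD, n = 2 each; log2 fold change 2.93, SE 0.535, adjusted p = 0.00566). The log2 fold change was 1.97 without the second hAFE library and 3.51 without the first, and the call was lost without either hDE library (adjusted p = 0.0515 and 0.0562). It also rose in hPFE against hESC, at 19.3 ± 10.1 against 2.74 ± 0.0351 CPM (log2 fold change 2.81, SE 0.563, adjusted p = 0.00581), with a log2 fold change of 2.15 without the second hPFE library. In hAFE against hESC the log2 fold change was 4.61 (SE 0.588, adjusted p = 0.00117), 3.65 without the second hAFE library and 5.20 without the first. The rise in hDE against hESC was smaller (log2 fold change 1.68, adjusted p = 0.0456) and was lost in 6 of 16 alternatives, among them without any of the 4 libraries compared. In hPFE the level was below that in hAFE without passing (log2 fold change -1.80, SE 0.504, adjusted p = 0.0714). It passed with DESeq2 (adjusted p = 0.00342), with no count filter, with a replicate block (adjusted p = 0.0484) and without the first hAFE library (log2 fold change -2.37, adjusted p = 0.0112). The other 12 alternatives did not pass, among them without the second hAFE library (log2 fold change -0.84, adjusted p = 0.234) and with only the 4 libraries compared (adjusted p = 0.261).

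EYA2 (ENSG00000064655.18, chromosome 20, 46894624 to 47188844, plus strand), a coactivator found with SIX-family proteins in muscle and placodes, rose at the first step and overlapped between the later stages. It was at 0.721 and 1.07 CPM in hESC, 15.7 and 20.5 in hDE, 8.13 and 28.2 in hAFE, and 25.6 and 18.8 in hPFE. All 6 differentiated libraries lay above both hESC libraries, and the 3 differentiated stages overlapped. The level was 18.1 ± 3.42 CPM in hDE against 0.897 ± 0.250 CPM in hESC (SD, n = 2 each; log2 fold change 4.32, SE 0.627, adjusted p = 0.00156). It was 22.2 ± 4.81 CPM in hPFE, a log2 fold change of 4.61 over hESC (SE 0.628, adjusted p = 0.00125). In hAFE the log2 fold change over hESC was 4.32 (SE 0.626, adjusted p = 0.00195), 3.16 without the second hAFE library and 4.97 without the first. These 3 calls held in all 16 alternatives. Between hAFE and hDE the log2 fold change was 0.00 (SE 0.504, adjusted p = 1), and it was -1.16 without the second hAFE library (adjusted p = 0.0397).

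EYA3 (ENSG00000158161.15, chromosome 1, 27970344 to 28088696, minus strand), a phosphatase of the DNA damage response as well as a coactivator, passed no test. It was at 51.2 and 66.3 CPM in hESC, 65.5 and 68.0 in hDE, 99.7 and 66.8 in hAFE, and 66.5 and 67.8 in hPFE. The first hAFE library stood above the other 7, which ran from 51.2 to 68.0 CPM. The largest difference was hAFE against hESC (log2 fold change 0.50, SE 0.207, adjusted p = 0.0865). EYA4 (ENSG00000112319.18, chromosome 6, 133240598 to 133532120, plus strand), known from inherited deafness and heart muscle disease, had 2 and 1 counts in hESC, 0 and 10 in hDE, 6 and 11 in hAFE, and 7 and 7 in hPFE. Scaled to library size, the ratio of its pooled counts to the 3 counts of hESC was 4.57 in hDE (exact 95% binomial interval 1.18 to 25.8), 6.75 in hAFE (1.95 to 36.0) and 5.28 in hPFE (1.47 to 28.7). These intervals cover counting error only and not the spread between libraries, over which EYA4 was not tested.

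**Figure D4:**
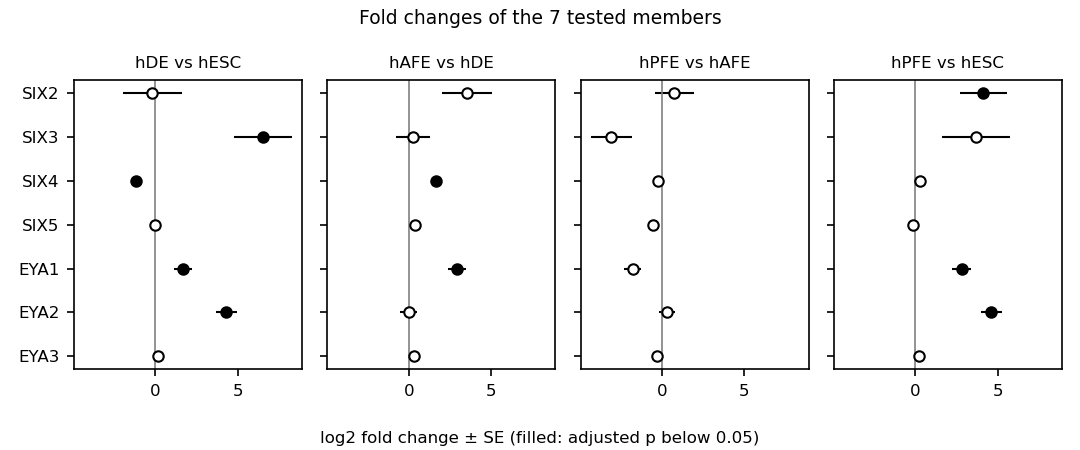
Log2 fold change with its SE (horizontal axis) of the 7 members with enough counts, for hDE vs hESC, hAFE vs hDE, hPFE vs hAFE and hPFE vs hESC, with filled points where the adjusted p was below 0.05. SIX4 is to the left of 0 in hDE vs hESC and to the right in hAFE vs hDE, EYA2 is filled at 4.32 and 4.61 in the comparisons with hESC, and no point is filled in hPFE vs hAFE. The SIX3 points against hESC rest on 1 hESC count and are no measure of its fold.

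Ordered by mean CPM, few neighbouring stages could be told apart. For SIX4 the order was hAFE, hPFE, hESC and hDE, and only the last step passed. The order of EYA1 was hAFE, hPFE, hDE and hESC, and only hDE against hESC passed, although no libraries of neighbouring stages overlapped. EYA2 ran from hPFE through hAFE and hDE to hESC, again with only the last step passing. For SIX2, SIX3, SIX5 and EYA3, no step between neighbours in the order passed.

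Transcript use can be read only through the deposited mean transcript length. SIX2, SIX3 and SIX6 have 1 annotated transcript each, and EYA1 has 25. The mean length of EYA1 transcripts, weighted by abundance, was 2974 and 2077 bases in hESC, 2935 and 3037 in hDE, 3542 and 3549 in hAFE, and 3329 and 3506 in hPFE. All 4 libraries of the later 2 stages were above all 4 earlier ones, a split that is also that of library origin. SIX4 ranged from 4524 to 6098 bases, both in hDE, so the whole range over stages lay within 1 pair of replicates. With effective length as an offset, the EYA1 rise in hDE over hESC lost its call (log2 fold change 1.37, adjusted p = 0.0886), and that in hAFE over hDE kept it.

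Among the PAX, DACH and pharyngeal genes that work with SIX-family and EYA proteins, 6 were called higher in hAFE than in hDE. Of 14 network partners 9 were tested. The low PAX2, PAX3, PAX7, PAX8 and GCM2 were not. PAX1, TBX1 and HOXA3, with 0 or 1 counts in hESC and in hDE, passed the count filter only through hAFE or hPFE, where they are higher. The counts of calls and the median below are thus partly set by the filter, and nothing particular to the list is read from them. In hDE against hESC 2 of the 9 rose and 1 fell, beside 20.3% and 21.6% of all genes tested. In hAFE against hDE 6 rose, beside 15.0%. In hPFE against hAFE 1 rose and 1 fell, beside 4.77% and 2.71%. In hPFE against hESC 6 rose, beside 21.6%. The median log2 fold change of the 9 in hPFE against hESC was 5.17, or 4.18 with the 3 genes of 0 counts in hESC at their lower bound, beside 0.0155 over all genes tested. HOXA3, needed for the thymus and parathyroids in mouse, was at 7.14 and 0.146 CPM in the first and second hAFE libraries, and DACH1 at 9.85 and 1.61 CPM, the opposite order to SIX3, EYA1 and EYA2. PAX9 was at 5.52 and 2.10 CPM in hDE, 25.4 and 21.8 in hAFE, and 95.7 and 28.6 in hPFE. PAX1, its close relative of pouch endoderm, had 26.5 and 17.3 CPM in hPFE against 0 and 0.658 CPM in hAFE (log2 fold change 6.07, SE 0.932, adjusted p = 0.0161). It was the only network partner called higher at that step. PAX9 was higher there too, without overlap of libraries, and was not called (log2 fold change 1.40, adjusted p = 0.16). DACH1, a cofactor that joins EYA, reached 12.8 CPM in hPFE against 0.348 CPM in hESC (log2 fold change 5.17, SE 0.895, adjusted p = 0.00325). SALL1, a zinc finger factor of ear, limb and kidney, fell to 44.3 CPM in hPFE, against 170.7 CPM in hAFE, where it was higher than in any other library (log2 fold change -1.95, SE 0.2, adjusted p = 0.0037). SOBP, a homologue of a Drosophila protein that binds the SIX-family protein Sine oculis, rose in hAFE against hDE, at 7.96 against 1.09 CPM (log2 fold change 2.85, adjusted p = 0.00304).

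**Figure D5:**
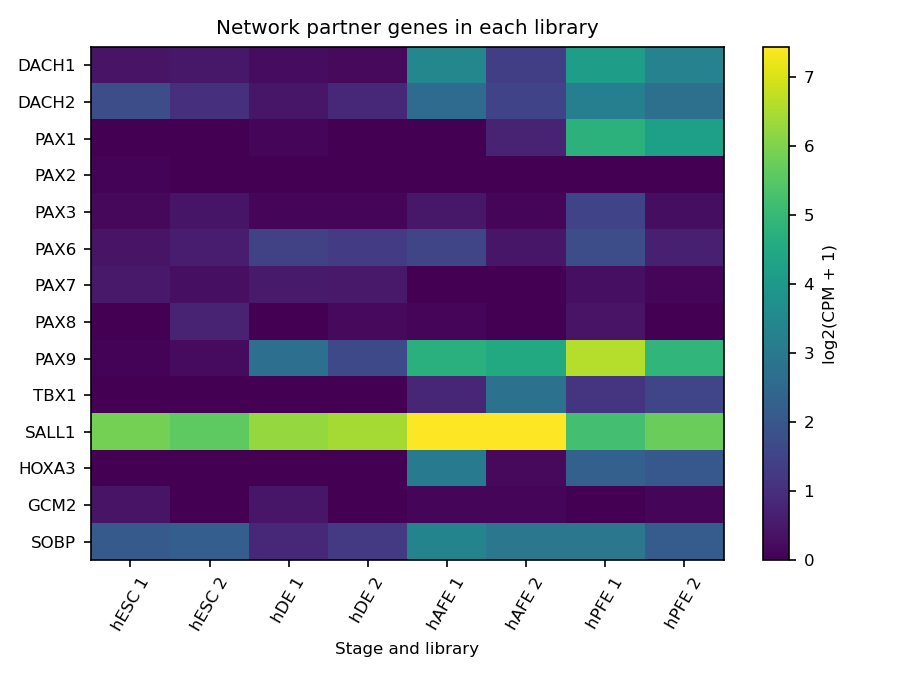
Heat map of log2(CPM + 1) of the 14 network partners (rows) in the 8 libraries (columns). PAX9 is brighter in hAFE and hPFE than in hESC, PAX1 is bright in the 2 hPFE libraries, and SALL1 is brightest in the 2 hAFE libraries.

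The TLE co-repressors TLE1, TLE2, TLE3 and TLE4, which SIX3 and SIX6 can recruit, and the related gene AES were called in both directions. All 5 were called in hDE against hESC, 3 higher (AES, TLE2 and TLE3) and 2 lower (TLE1 and TLE4), beside 41.9% of all genes tested. TLE2 was at 16.4 against 1.66 CPM (adjusted p = 0.00112) and TLE4 at 9.48 against 40.5 CPM (adjusted p = 0.00211). TLE4 then rose in hAFE to 81.2 CPM against 9.48 CPM in hDE (adjusted p = 0.000599). In hPFE against hAFE, TLE2 alone was called, higher at 15.7 against 3.17 CPM (adjusted p = 0.0207), beside 7.49% of all genes.

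Markers of other cell types in which SIX-family and EYA genes are used were read beside them. The 12 placodal genes summed to 7.93 and 5.82 CPM in hESC, 44.9 and 56.1 in hDE, 21.2 and 97.3 in hAFE, and 41.0 and 62.9 in hPFE. Of the 10 tested, 5 rose and 1 fell in hDE against hESC, beside 20.3% and 21.6% of all genes tested. In hPFE against hESC 7 rose, beside 21.6%. FOXI1, GATA2, GATA3 and PITX1 had 0 counts in hESC and passed the count filter only through later stages, so these counts of calls are partly set by the filter. DLX5 and DLX6 were at 0.304 CPM or less in every library. The 8 eye field and anterior neural genes summed to 21.4 and 357 CPM in the first and second hAFE libraries, most of it OTX2 in both, while RAX was at 0.180 CPM or less in every library. Of the 3 of these genes tested, 1 rose (OTX2) and 1 fell (SOX3) in hDE against hESC, beside 20.3% and 21.6% of all genes. The 10 muscle, kidney and paraxial mesoderm genes summed to 3.30 and 5.88 CPM in hESC, 9.70 and 10.5 in hDE, 82.4 and 50.8 in hAFE, and 62.7 and 48.0 in hPFE. Of the 6 tested, 3 rose and 1 fell in hPFE against hESC, beside 21.6% and 23.3% of all genes. Those that rose, FOXC1, MEOX1 and FOXC2, had 11, 0 and 1 counts in hESC and passed the count filter only through later stages. TCF15, which fell, had 56 counts in hESC and 2 in hPFE and passed mainly through hESC. These counts of calls are thus partly set by the filter. MYF5 had no count in any library and MYOD1 reached 0.0724 CPM in 1. FOXC1, a mesenchymal forkhead gene, was at 16.4 and 47.1 CPM in the first and second hAFE libraries, and MEOX1, a somite gene, ran the other way at 20.6 and 0.219 CPM. FOXC2, a gene of head and paraxial mesenchyme, was at 0 and 1.39 CPM in the hAFE libraries and 1.15 and 1.88 in hPFE, higher in the second library at both stages, as SIX2 was. The 6 neural crest genes summed to between 4.02 and 40.0 CPM. In hPFE against hESC, 1 of the 5 tested rose (SNAI2) and 2 fell (SOX10 and FOXD3, with no counts in hPFE), beside 21.6% and 23.3%. SOX10 and FOXD3 passed the count filter only through hESC or hDE, where they are higher, so these falls are partly set by the filter. In hPFE against hAFE 2 rose, beside 4.77% of all genes. SNAI2, which is also a gene of mesenchyme, was at 4.74 and 14.1 CPM in hPFE against 0.925 and 0.366 CPM in hAFE (log2 fold change 3.83, adjusted p = 0.0182). ETS1, also a gene of endothelium and blood, averaged 21.7 CPM in hPFE against 4.35 CPM in hAFE (log2 fold change 2.31, adjusted p = 0.0169). The placodal and eye field sums and SIX2, SIX3, EYA1 and EYA2 were all higher in the second hAFE library than in the first, while the muscle, kidney and paraxial mesoderm sum and the neural crest sum (4.02 CPM in the second, 15.2 CPM in the first) were lower there. The part of other cell types in the SIX-family and EYA levels was not tested.

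Genes with the most similar course were ranked by Pearson correlation of log2 CPM over the 8 libraries, as a description; the libraries fall into 4 stages and share depth and stage, and 17445 genes were searched per member. SIX3 was followed most closely by SMAD2, a transducer of Nodal signals (r = 0.995), then by PRNCR1 (0.984) and AL358613.2 (0.979). For EYA2, AC068790.3 (0.985) and MUC20-OT1 (0.984) were among the 3 highest. SIX4 was matched by CASP6, a caspase (0.988), NAALAD2 (0.986) and AC098934.1 (0.986). EYA1 was matched by FMR1 (0.982), FAM200A (0.981) and AC008895.1 (0.981). SIX2 was matched by CDH10, a cadherin (0.968), CDKL4 (0.966) and FOXC2 (0.965). For SIX5 (ALDH6A1, 0.954; PLIN4, 0.931; TECPR1, 0.918) and EYA3 (UHRF2, 0.933; UBE2Q2P2, 0.931; CNN3, 0.925) the best values were lower. Among the members themselves the highest was EYA1 with EYA2 (0.737), and the lowest SIX2 with SIX5 (-0.331).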

How the data were processed

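Total RNA was depleted of ribosomal RNA and made into dUTP strand-specific paired-end libraries, per the labels' protocols. The tables hold RSEM output by gene per the file headers. RSEM, DESeq2 and hg38 are named, with no version, in the submitters' processing notes; no source used here names an aligner. Expected counts, as deposited, are estimated counts in which a read fitting several genes is divided among them. The deposited TPM values allow for effective length, and the deposited lengths, posterior SDs and TPM credibility intervals were read as other columns. Of 72 member TPM values 21 lay below their deposited interval, 15 of them in EYA1 and EYA4, so those intervals were not used as errors.

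Of 59526 rows, 58780 matched GENCODE 29, and the other 746 held 0 counts. Expected counts were rounded and filtered with filterByExpr (17446 genes). One model over all 8 libraries (4 stage terms, 4 residual degrees of freedom, so the spread is shared by all stages) was fitted with edgeR 4.0.16 in R 4.3.3 (TMM, quasi-likelihood test, Benjamini-Hochberg, threshold 0.05), after a check on simulated data. The SE is the log2 fold change divided by the square root of F. Correlations used log2 CPM with a prior count of 2. Named genes were all members, up to 3 called genes of highest CPM per list, direction and comparison, from which some are given, the 3 most correlated genes, and neighbours within 50 kb at 1 TPM or more; values of some genes that this rule names are not reported here, and HOXA3 and the markers given as low or absent were singled out after their values were seen. Alternatives were RLE scaling, no filter (at least 1 count), a fit on just the 4 libraries of a comparison, a replicate block, offsets for effective length, limma 3.58.1 on log2(TPM + 1), voom with a weight per stage, DESeq2 1.42.0 and leaving out each library, 16 in all. The members and lists were chosen with earlier results of these data known.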

Additional observations from a re-analysis of the deposited data

How the results depend on the processing

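Of 14 called member comparisons, 8 kept direction and call in all 16 alternatives, and none of the 14 changed sign; of 28 not called, 3 stayed so with the same sign in all. The number of members called was 2 in hDE against hESC, 4 in hAFE against hDE, 2 in hAFE against hESC and 4 in hPFE against hDE on log2(TPM + 1), against 4, 2, 4 and 1 with counts. That scale has no TMM scaling: its median log2 fold change over all genes was 0.496 in hAFE against hDE and 0.68 in hPFE against hDE. With no count filter, where SIX6 and EYA4 were also tested, 2 members were called in hPFE against hAFE (0 with the filter), 7 in hAFE against hESC and 5 in hPFE against hDE. DESeq2 called 1 in hPFE against hAFE and 2 in hPFE against hDE. With only the 4 libraries compared, 3 were called in hPFE against hDE. The cause was not tested.

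Leaving out each library in turn gave 2 to 4 calls in hDE against hESC, 1 to 3 in hAFE against hDE, 0 to 2 in hPFE against hAFE, 2 to 4 in hPFE against hESC, 2 to 4 in hAFE against hESC and 1 to 4 in hPFE against hDE. The lone library left is assumed to vary like the others.

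The labels number the libraries 1 and 2 at each stage without saying that a number marks a shared culture. Deviations of same-numbered libraries correlated at -0.0434 to 0.0605 over pairs of stages. No shared deviation was seen, but a shared culture with a small effect would look the same, so pairing stays unknown. With the replicate block, 1 member was called in hPFE against hAFE and 2 in hPFE against hDE, against 0 and 1 without it, and the count in the other comparisons stayed within 1.5 times.

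Signs turned only in differences that had not passed. On log2(TPM + 1) the log2 fold change was -0.37 for EYA3 in hDE against hESC, 0.045 for SIX4 and 0.061 for EYA3 in hPFE against hAFE, and for SIX5 0.42 in hPFE against hESC and 0.80 in hPFE against hDE (adjusted p = 0.0194). In hAFE against hDE, SIX3 was at -0.54 with the replicate block and -0.76 with voom, and EYA2 at -0.0047 with only the 4 libraries, -0.11 with the replicate block, -0.023 with length offsets and -0.29 with voom. Leaving out a library gave these log2 ranges. In hDE against hESC, SIX2 ran from -0.84 to 0.17 and SIX5 from -0.13 to 0.12. In hAFE against hDE, SIX2 ran from -0.47 to 4.54, SIX3 from -2.69 to 1.17 and EYA2 from -1.16 to 0.64. In hPFE against hAFE, SIX2 ran from -0.88 to 4.78, EYA2 from -0.34 to 1.45 and EYA3 from -0.57 to 0.0092. SIX2 in hAFE against hESC ran from -0.67 to 4.35, and EYA3 in hPFE against hDE from -0.018 to 0.072. Depth limits SIX2, SIX3, SIX6 and EYA4 most, each with 11 counts or fewer over the libraries of at least 1 stage.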
